A study of Mus musculus with 8 samples.

Results

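The microRNAs (miRNAs) described here are those of muscle: miR-1a-3p, both arms of miR-133a, miR-133b-3p and miR-206-3p. They are the 5 probe sets MIMAT0000123_st (miR-1a-3p), MIMAT0000145_st (miR-133a-3p), MIMAT0003473_st (miR-133a-5p), MIMAT0000769_st (miR-133b-3p) and MIMAT0000239_st (miR-206-3p), chosen by miRBase accession, out of 1908 mature miRNA probe sets in the table. All 5 were measured on every array, and no filter on low values was applied.

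Hearts of male C57/BL6 mice labelled 8 weeks old were profiled on the Affymetrix miRNA 4.0 array. The MI group held 4 hearts taken 21 days after the left anterior descending coronary artery was tied off, a surgical model of myocardial infarction (MI). The Sham group held 4 hearts taken 21 days after a sham operation. Titles number the MI hearts 1, 4, 5 and 7 and the Sham hearts 1 to 4, and both groups carry the suffix nc, which the labels do not explain. The labels do not say which region of the ventricle entered the extract.

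A miRNA binds messenger RNAs through its seed, the bases near its 5′ end, and lowers their translation or stability. miR-1 and miR-133a are made together from shared transcripts in heart and skeletal muscle cells, where miR-1 is known for promoting muscle differentiation and miR-133a for restraining growth and fibrosis. miR-206 and miR-133b are made from another locus that is used mainly in skeletal muscle. Of each precursor hairpin, one arm usually accumulates and the other is the less abundant partner.

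RefSeq sequences on GRCm38.p6 are shown for miR-133b-3p and miR-206-3p, whose hairpins lie close together on the same strand of chromosome 1. The probe set of miR-133b-3p, which may carry signal of miR-133a-3p, was bright in every heart, and that of miR-206-3p in MI hearts 1 and 4 alone. Capitals mark the seed, bases 2 to 8.
miR-133b-3p: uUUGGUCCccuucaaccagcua
miR-206-3p: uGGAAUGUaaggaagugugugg
The first occupies chr1:20682834-20682855 and the second chr1:20679055-20679076, both on the plus strand. The seed of miR-206-3p, which miR-1 is known to share, was found in 3 of 1674 distinct mature sequences of that table, the others being miR-6349 and miR-6382. The seed of miR-133b-3p, which miR-133a-3p is known to share, was found in 1 of them, miR-133b-3p itself. Those RefSeq sequences held none for miR-1a-3p or miR-133a-3p, so the counts leave these relatives out.

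In the next pair, the hairpins are printed with the 3p arm that the array measures in capitals.
Mir133b: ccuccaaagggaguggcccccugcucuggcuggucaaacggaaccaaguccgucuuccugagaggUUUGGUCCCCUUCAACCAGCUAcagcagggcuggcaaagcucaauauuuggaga
Mir206: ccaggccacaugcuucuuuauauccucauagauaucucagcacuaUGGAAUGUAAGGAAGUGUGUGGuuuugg
They occupy chr1:20682769-20682887 and chr1:20679010-20679082, with 3686 bases between them. The long noncoding RNA gene Lincmd1, known from muscle differentiation, spans both in the same RefSeq assembly.

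The deposited values are log2 intensities produced by RMA, on which a difference of 1 unit is a doubling of signal. Values over all probe sets ran from 0.617 to 15.9, and the medians of the 8 arrays lay between 1.28 and 1.30. A low reference was taken from 17 of the 22 spike-in controls, picked because they were dim on every array. They reached at most 2.06 on any array. Because whole tissue was measured, fewer muscle cells and less miRNA per muscle cell cannot be told apart. The labels name no separate handling of hearts, so p-values describe the spread between these 8 hearts.

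After infarction, none of the 5 muscle miRNAs differed from sham past the threshold. The count was 0 of 5 at an adjusted p under 0.05 (limma, Benjamini-Hochberg over all 1908 mature probe sets), where 0.524% of all mature probe sets passed. At an unadjusted p under 0.05, 1 of 5, miR-133a-5p, was lower in MI hearts, where 3.2% of all mature probe sets were. It was also the only one of the 5 whose values did not overlap between groups, all MI hearts being lower, a pattern held by 1.26% of all mature probe sets. The abundant miR-1a-3p, miR-133a-3p and miR-133b-3p overlapped between groups, and miR-206-3p was bright in MI hearts 1 and 4 alone.

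**Figure D1:**
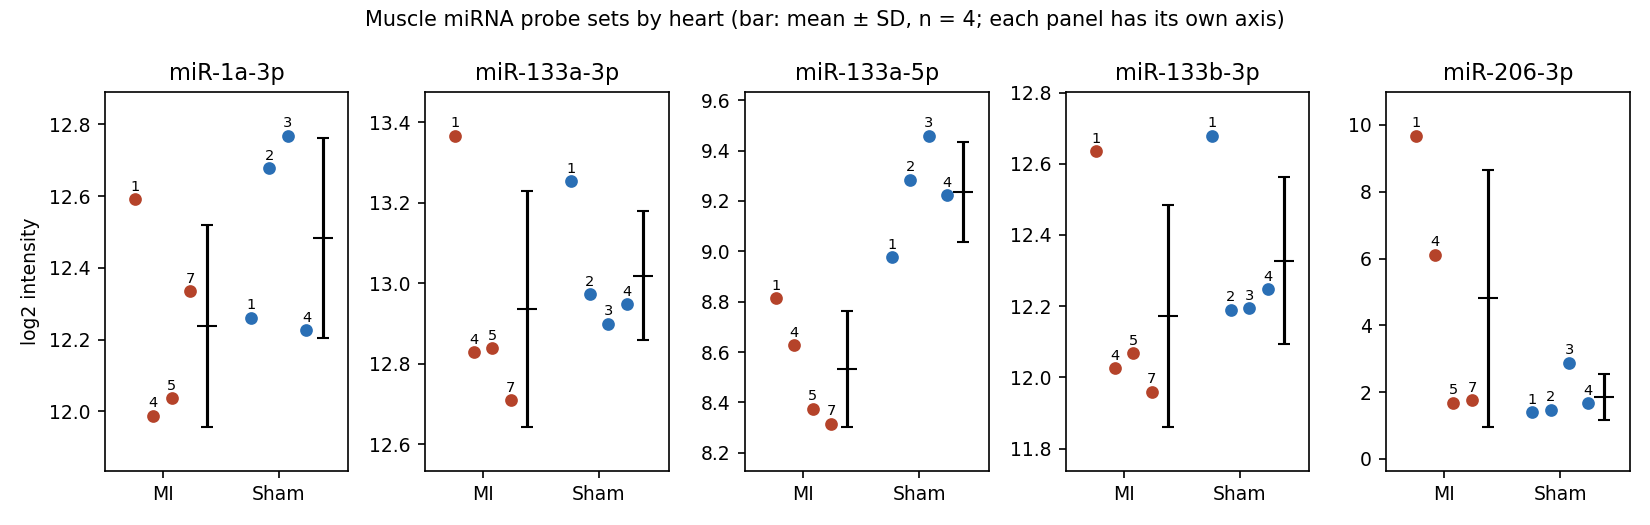
Deposited log2 intensity (vertical axis, a separate scale for each panel) of the 5 muscle miRNA probe sets in MI and Sham hearts, with heart numbers beside the points and the mean ± SD (n = 4) as a bar. Only for miR-133a-5p do the groups not overlap, and miR-206-3p stands at 9.68 and 6.11 in MI hearts 1 and 4.

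miR-1a-3p, which represses messenger RNAs of transcription factors and ion channels in heart muscle, measured 12.59, 11.99, 12.04 and 12.34 log2 units in MI hearts 1, 4, 5 and 7, against 12.26, 12.68, 12.77 and 12.23 in Sham hearts 1 to 4. MI hearts 4 and 5 lay below all Sham hearts, while MI heart 1 lay within the range of the Sham hearts. The means were 12.24 ± 0.281 in MI hearts and 12.48 ± 0.279 in Sham hearts (SD, n = 4 each). The estimate for MI minus Sham was -0.25 (SE 0.183), with an adjusted p of 0.917 in limma. It was -0.14 after centring on bright probe sets, -0.15 without Sham heart 3 and -0.16 without MI heart 4. With all arrays its 95% interval runs from -0.67 to 0.18 log2 units, so MI signal between 63.0% and 113% of the Sham signal lies within it.

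miR-133a-3p is the abundant arm of miR-133a, and its loss in mice is known to lead to fibrosis and disturbed growth of the heart. It measured 13.37, 12.83, 12.84 and 12.71 log2 units in MI hearts 1, 4, 5 and 7, against 13.25, 12.97, 12.90 and 12.95 in Sham hearts 1 to 4. MI heart 1 was above every Sham heart, and the other MI hearts were below every Sham heart. The means were 12.94 ± 0.293 in MI hearts and 13.02 ± 0.160 in Sham hearts (SD, n = 4 each). The estimate was -0.083 (SE 0.158, limma adjusted p = 0.972), and it turned to 0.020 after quantile normalization and to 0.027 after centring on bright probe sets. Leaving out each heart in turn gave -0.23, without MI heart 1, to -0.0041, without Sham heart 1. Its 95% interval with the deposited values, from -0.45 to 0.28, holds MI signal between 73.3% and 122% of the Sham signal.

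miR-133b-3p, the skeletal muscle relative of miR-133a-3p, measured 12.64, 12.03, 12.07 and 11.96 log2 units in MI hearts 1, 4, 5 and 7, against 12.68, 12.19, 12.20 and 12.25 in Sham hearts 1 to 4. In each group heart 1 stood apart from the rest, and the other MI hearts lay below every Sham heart. The means were 12.17 ± 0.312 in MI hearts and 12.33 ± 0.235 in Sham hearts (SD, n = 4 each). The estimate was -0.16 (SE 0.181, limma adjusted p = 0.933), with a 95% interval from -0.57 to 0.26. It was -0.038 without Sham heart 1, -0.084 without MI heart 7, -0.31 without MI heart 1 and -0.046 after centring on bright probe sets.

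miR-133a-3p and miR-133b-3p varied together from heart to heart. Over the 8 hearts Pearson's r was 0.975 (exact permutation p = 0.000446, adjusted p = 0.00268 over 6 pairs of the 4 bright muscle miRNAs). Spearman's rho was 0.905 (exact permutation p = 0.00456, adjusted p = 0.0274). Without MI heart 1 and Sham heart 1, which lay farthest from the median of miR-133a-3p, r was 0.933. In the remaining 5 pairs r ran from 0.283 to 0.654, and the smallest adjusted p was 0.261 (exact permutation test). Within groups of 4 hearts these pairs were positive in MI and negative in Sham hearts, except miR-1a-3p with miR-133a-5p (0.443 and 0.802). For miR-133a-3p with miR-133a-5p, r was 0.864 in MI and -0.928 in Sham hearts. The contrast between groups was not tested. The difference between miR-133a-3p and miR-133b-3p on the same array was 0.73, 0.80, 0.77 and 0.75 in MI hearts 1, 4, 5 and 7, against 0.58, 0.78, 0.70 and 0.70 in Sham hearts 1 to 4. The groups overlapped (p = 0.171 by an exact two-sided permutation test, 0.229 after adjustment over 4 such differences). Since the mature miRNAs are nearly identical in sequence, signal of one on the probes of the other and levels that vary together cannot be told apart on this array.

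miR-133a-5p, the less abundant arm of the miR-133a hairpins, measured 8.81, 8.63, 8.38 and 8.32 log2 units in MI hearts 1, 4, 5 and 7, against 8.98, 9.28, 9.46 and 9.22 in Sham hearts 1 to 4. The closest values across the groups were those of MI heart 1 and Sham heart 1. The means were 8.53 ± 0.231 in MI hearts and 9.24 ± 0.200 in Sham hearts (SD, n = 4 each). The estimate of -0.70 (SE 0.147) had a 95% interval from -1.04 to -0.36, which corresponds to MI signal at 61.5% of the Sham signal (48.6% to 77.7%). Its unadjusted p of 0.00137 was the smallest of any mature probe set with a lower mean in MI hearts, but the adjusted p was 0.119 (limma), so it did not pass. This interval is for 1 probe set and is not adjusted for the number tested.

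**Figure D2:**
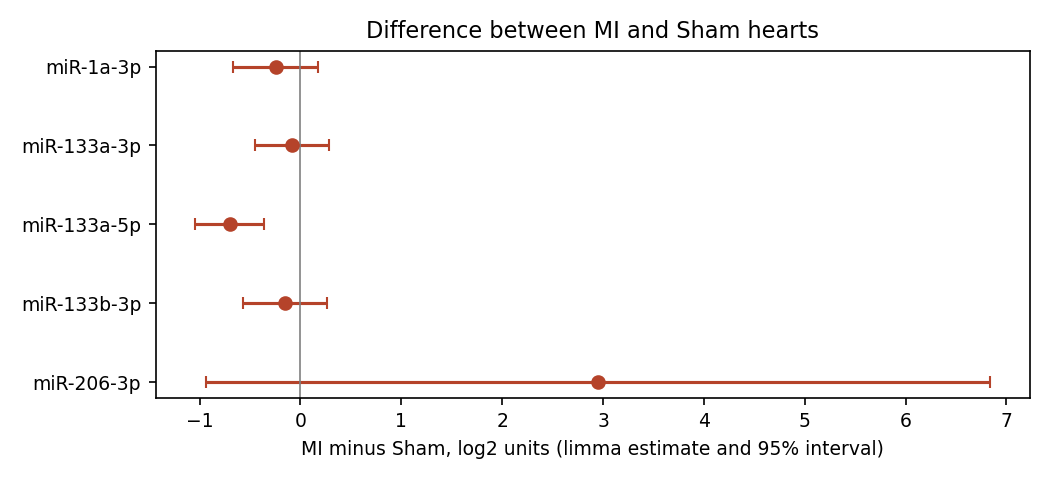
MI minus Sham difference in log2 units (horizontal axis) for each muscle miRNA, as the limma estimate (point) and its 95% interval (bar), unadjusted for multiple testing. The interval of miR-133a-5p, from -1.04 to -0.36, lies below 0, and that of miR-206-3p, from -0.94 to 6.84, is the widest of the 5.

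The 2 arms of miR-133a were also compared on the same array. The miR-133a-5p value minus the miR-133a-3p value was -4.55, -4.20, -4.46 and -4.39 in MI hearts 1, 4, 5 and 7, against -4.28, -3.69, -3.44 and -3.73 in Sham hearts 1 to 4. Only Sham heart 1 fell among the MI hearts. The means were -4.40 ± 0.149 in MI hearts and -3.78 ± 0.354 in Sham hearts (SD, n = 4 each), a change of -0.62 that did not pass (p = 0.0571 by the exact permutation test, 0.229 after adjustment). With 4 hearts per group the smallest p this test can give is 0.0286, so 1 difference alone cannot pass after adjustment over 4. Sham heart 1 had both the highest miR-133a-3p and the lowest miR-133a-5p of its group. The arms lie at different places on the intensity scale, with a mean of 12.98 for miR-133a-3p and 8.88 for miR-133a-5p over all hearts. The part of signal compression by saturation in the arm difference was not tested. Nor was the part of miR-133b-3p signal on the probes of miR-133a-3p.

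The miR-133a-3p value minus the miR-1a-3p value, from miRNAs that share their primary transcripts, was 0.78, 0.84, 0.80 and 0.37 in MI hearts 1, 4, 5 and 7. In Sham hearts 1 to 4 it was 0.99, 0.30, 0.13 and 0.72, which spans the whole MI range. The group means differed by 0.16 (p = 0.486 by the exact permutation test, before and after adjustment).

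**Figure D3:**
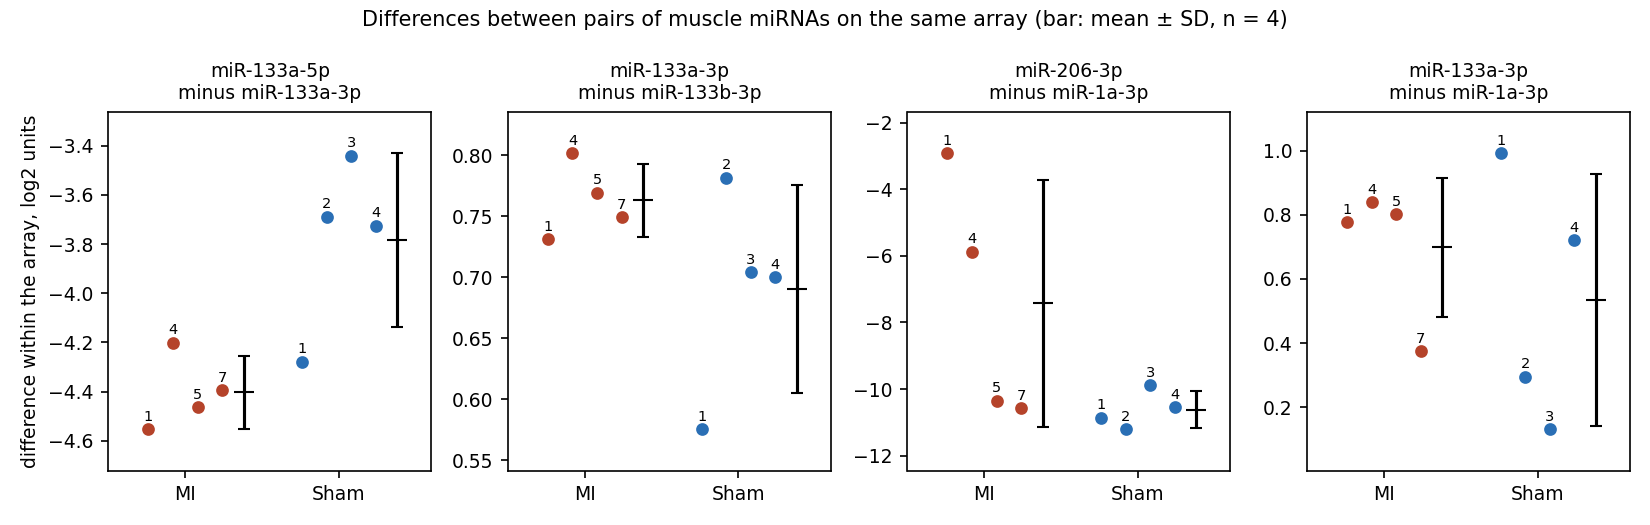
Difference between 2 muscle miRNAs on the same array in log2 units (vertical axis, a separate scale for each panel) in MI and Sham hearts, with heart numbers beside the points and the mean ± SD (n = 4) as a bar. The arm difference of miR-133a lies between -4.55 and -4.20 in MI hearts and between -4.28 and -3.44 in Sham hearts, and the difference between miR-133a-3p and miR-133b-3p spans only 0.58 to 0.80 over all hearts.

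miR-206-3p, a miRNA of skeletal muscle that takes part in muscle regeneration, measured 9.68, 6.11, 1.68 and 1.76 log2 units in MI hearts 1, 4, 5 and 7, against 1.41, 1.47, 2.88 and 1.68 in Sham hearts 1 to 4. On 5 of the 8 arrays it read no higher than the dim controls can reach, 2.06. Measured against the dim controls of the same array, only Sham hearts 1 and 2 were not above. MI hearts 5 and 7 read 1.68 and 1.76 against 1.49 and 1.69, and Sham heart 4 read 1.68 against 1.62. MI heart 1 read 6.80 log2 units and MI heart 4 read 3.23 above the highest Sham heart, while MI hearts 5 and 7 lay within the range of the Sham hearts. The MI hearts also differed among themselves, with 3.57 log2 units between hearts 1 and 4.

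The group means were 4.81 ± 3.85 in MI hearts and 1.86 ± 0.692 in Sham hearts (SD, n = 4 each). The estimate of 2.95 (SE 1.69, limma adjusted p = 0.865) had a 95% interval from -0.94 to 6.84, so it did not exceed the spread between hearts. It rests on MI hearts 1 and 4 and is set against Sham readings mostly not above 2.06, so its size is not a measured fold. It was 1.32 without MI heart 1. Without both, an alternative chosen after the values were seen, only Sham heart 3 read above 2.06, and no direction is read from the estimate that is left. The miR-206-3p value minus the miR-1a-3p value, which sets it against its seed relative on the same array, ran from -10.6 to -2.91 in MI hearts and from -11.2 to -9.89 in Sham hearts (p = 0.171 by the exact permutation test, 0.229 after adjustment).

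Among all 1908 mature probe sets, miR-206-3p had the largest range of deposited values over the 4 MI hearts. Since its low values were not above 2.06, the highest dim control of any array, the range is given only as at least 7.62 log2 units, MI heart 1 over 2.06. The next largest range was 3.60 and the median range was 0.413. In 72 of the 1908 mature probe sets both MI hearts 1 and 4 read above each of the other 6 arrays. The gap exceeded 1 unit in only 1 probe set besides miR-206-3p, at 1.07. These hearts were picked from the values of miR-206-3p, so its lead there follows in part from that choice. The probe set of miR-133b-3p, whose hairpin shares the locus, read 12.64 in MI heart 1 and 12.03 in MI heart 4, the latter below every Sham heart. Signal of miR-133a-3p on its probes cannot be told apart, so these values do not show how the locus itself changed.

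The other muscle miRNAs were read again without these hearts. MI heart 1 had the highest value of the MI hearts in all 5 muscle miRNAs. Without MI heart 1 the MI minus Sham difference was -0.36 for miR-1a-3p, -0.23 for miR-133a-3p, -0.31 for miR-133b-3p and -0.80 for miR-133a-5p (limma, adjusted p = 0.0932 for miR-133a-5p). Without MI hearts 1 and 4 these were -0.30, -0.24, -0.31 and -0.89 in the same order (limma, adjusted p = 0.168 for miR-133a-5p). The part of skeletal muscle RNA, of which miR-206 is a marker, in the other muscle miRNA values was not tested.

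**Figure D4:**
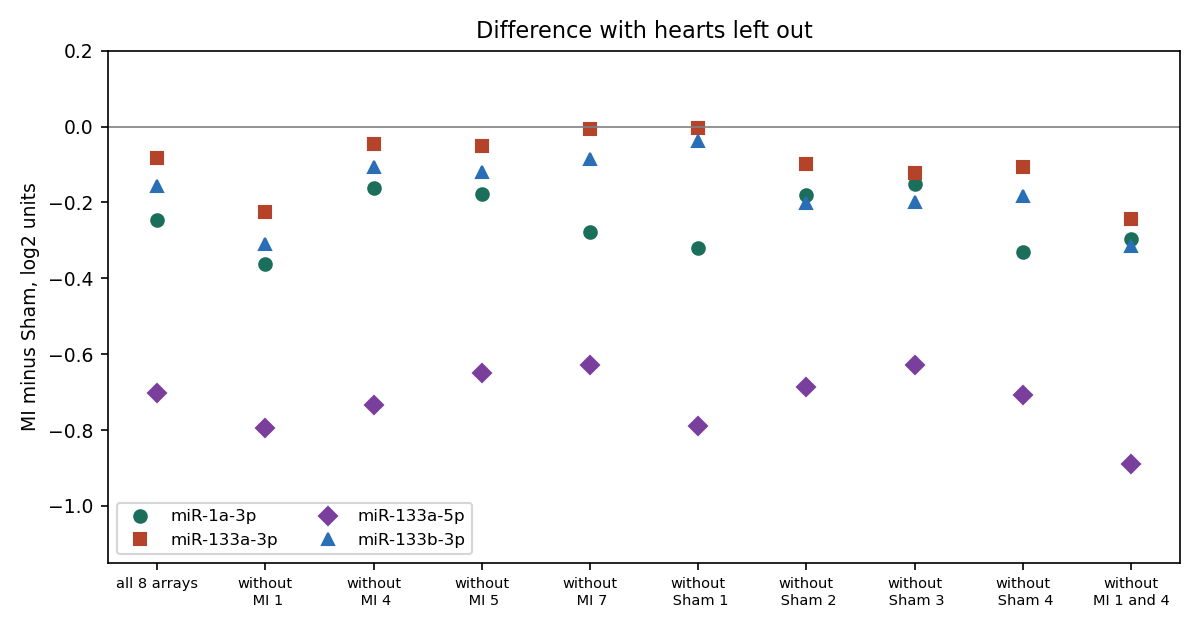
MI minus Sham difference in log2 units (vertical axis) of the 4 muscle miRNAs that were bright on every array, with all 8 arrays, without each heart in turn and without MI hearts 1 and 4 together. miR-133a-5p stays between -0.89 and -0.63, and miR-133a-3p comes as near to 0 as -0.0041.

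The position on the intensity scale bears on how large a difference could be read. The brightest controls read 15.9 on every array and the brightest mature probe sets 14.6 to 14.8, while miR-1a-3p, miR-133a-3p and miR-133b-3p ranked between 14 and 40 among mature probe sets on each array. The spread between hearts shrank towards the top of the scale. The median SD within groups was 0.410 for the 65 mature miRNAs whose mean lay from 8 to 10, 0.293 in the 37 from 10 to 12, 0.256 in the 20 from 12 to 13, 0.178 in the 11 from 13 to 14 and 0.0904 in the 6 above. The largest difference between groups shrank with it, with 1.77 from 8 to 10, 1.53 from 10 to 12, 0.427 from 12 to 13, 0.379 from 13 to 14 and 0.108 above. These are maxima over fewer and fewer probe sets. The median absolute difference fell less, with 0.241, 0.211, 0.185 and 0.179 in the same ranges up to 14, and was 0.0447 above. The 3 bright muscle miRNAs, with SDs within groups of 0.280, 0.236 and 0.276 for miR-1a-3p, miR-133a-3p and miR-133b-3p, had means above 12, and no mature probe set with a mean of 12 or more differed by more than 0.427. Compression of the signal by saturation and a true lack of large differences cannot be told apart there.

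**Figure D5:**
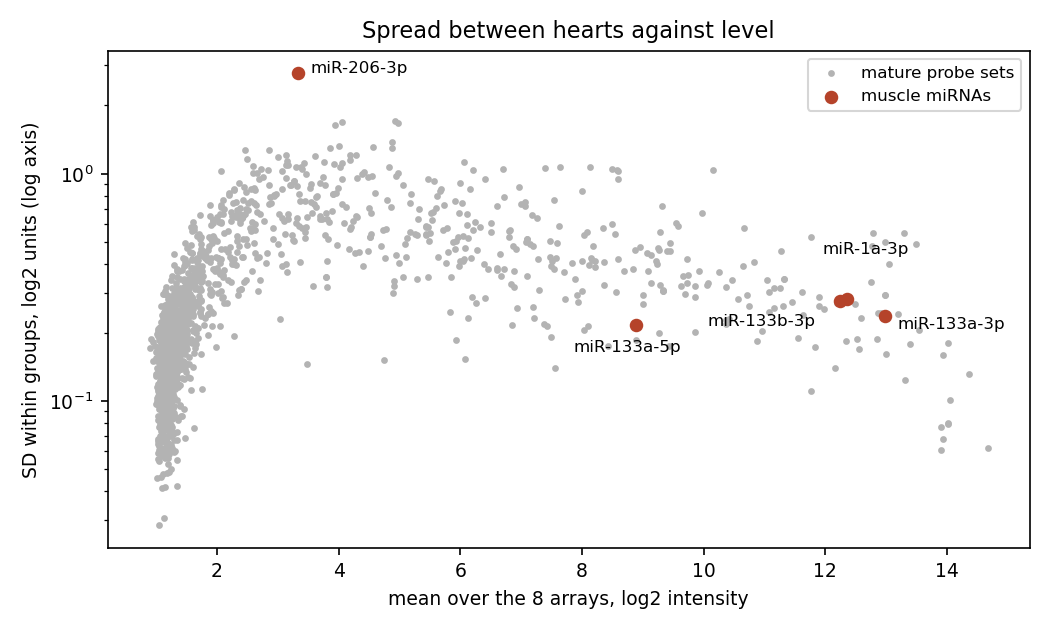
SD within groups in log2 units (vertical log axis) against mean log2 intensity over the 8 arrays (horizontal axis) for 1908 mature probe sets (grey) and the 5 muscle miRNAs (red). miR-206-3p, at an SD of 2.77, lies above all others, and the spread narrows above a level of 13.

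Set beside probe sets of similar level, miR-133a-5p lay near the low end. Of 32 other mature probe sets whose mean was within 0.5 log2 units of it, 3 had a difference as low or lower, 19 were lower in MI hearts, the median difference was -0.048, and 0 had all 4 MI hearts below all Sham hearts. For miR-1a-3p there were 14 such neighbours with a median difference of -0.12, of which 3 were as low or lower. For miR-133a-3p there were 19 with a median of -0.098, of which 10 were as low or lower, and for miR-133b-3p 5 of 14 were, with a median of -0.12. These counts describe the table, since probe sets are not independent.

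The probe sets whose values ran most like each muscle miRNA over the 8 arrays were sought among the 472 others in the upper 25% of mature probe sets by mean, which still includes dim ones. For miR-133a-3p the highest r was 0.873, with MIMAT0000249_st, and its 3 most similar probe sets were the same 3 as those of miR-133b-3p. The 3 nearest to miR-133a-5p had r from 0.900 to 0.942, headed by MIMAT0000224_st, and MI minus Sham differences from -0.75 to -0.49 (limma, smallest adjusted p = 0.414). Because r was taken over both groups, lower values in MI hearts follow in part from the choice of these 3. For miR-1a-3p the 3 nearest had r from 0.912 to 0.925, and for miR-206-3p from 0.865 to 0.878. On 5 of the 8 arrays miR-206-3p was not above the highest dim control, so its r rests largely on its bright MI hearts. No likeness is read from it. For every muscle miRNA the 3 were picked as the highest of 472, and how high r runs by chance under such picking was not tested. No 2 muscle miRNAs other than miR-133a-3p and miR-133b-3p shared any of their 3 nearest. Those 2 correlated with each other at r = 0.975 on the same arrays, so their shared list follows largely from that and is no separate result.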

How the data were processed

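The authors deposited log2 intensities made with RMA, per the submitters' processing notes. The RMA version and software are not stated there, and detection calls were not used here. As a method, RMA subtracts background, normalizes the arrays against each other and combines probes, so a shift shared by a whole array is largely removed. Total RNA was poly(A)-tailed and biotin-labelled, per the labels' protocols. The table holds 3222 probe sets on 8 arrays, of which 1908 are mature miRNAs, 1255 hairpins and 59 controls, and is not centred per probe set. It was not paired with miRNA names: the 5 members were named from their miRBase accessions, and 0 accessions matched the RefSeq tables. The planned lists of other muscle, fibroblast, leukocyte, red cell, endothelial, smooth muscle and non-heart miRNAs, and the hairpins, therefore have no values here. RefSeq held the mature sequences printed for 2 of the 5.

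MI and Sham hearts were tested against each other in R 4.3.3 by limma 3.58.1 (lmFit, eBayes, two-sided, no covariate) over all mature probe sets, with Benjamini-Hochberg adjustment and a threshold of 0.05. The limma fit was tested on simulated data. Within-array differences were tested by exact two-sided permutation over 70 assignments. The number of arrays limits the precision. The named probe sets are the members and, for each, the 3 mature probe sets of the brightest 25% with the highest Pearson's r, of which 2 are printed because none has a name here. Members, lists and the dim controls were chosen with earlier results of these data known. The numbers 1 and 4 occur in both groups, but deviations from the group means correlated at -0.378 and -0.109 between hearts of the same number, so the hearts were not treated as pairs.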

Additional observations from a re-analysis of the deposited data

Results flagged for a closer look

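In 3 groups of 4 hearts, 1 heart stood far from the rest relative to the group's range. Chance gives about 1 in 20, or 0.9 of the 18 groups examined. In MI heart 1, miR-133b-3p read 12.6356 log2 units, against 11.96 to 12.07 in the rest of the MI group. In Sham heart 1 it read 12.6788, against 12.19 to 12.25 in the rest of the Sham group. The miR-133a-3p value minus the miR-1a-3p value was 0.3738 in MI heart 7, against 0.776 to 0.840 in the rest of its group. The values of miR-206-3p in MI hearts 1 and 4 did not meet this criterion, since they widen the range of their own group.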

How the results depend on the processing

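No alternative brought any of the 5 muscle miRNAs or 4 within-array differences past the threshold. For the within-array differences this says little, because a single p of 0.0286 becomes 0.114 after adjustment over 4. The exact permutation test gave p = 0.0286 for miR-133a-5p minus miR-133a-3p after quantile normalization and without Sham heart 1. It gave the same for miR-133a-3p minus miR-133b-3p without Sham heart 2. The adjusted p of miR-133a-5p ran from 0.0767 with array weights to 0.999 with the replicate block (limma), and its difference stayed below 0 in every alternative. Because all its MI values lay below all its Sham values, leaving out hearts or weighting arrays could not turn that sign. The sign turned for miR-133a-3p after quantile normalization (0.020) and after centring on the brightest 25% (0.027) and for miR-1a-3p with the replicate block (0.045). For miR-206-3p the estimate without MI hearts 1 and 4 was -0.14, which compares readings mostly not above 2.06 and gives no direction. Under the centring the median difference of all mature probe sets was 0.106, against -0.0039 with the deposited values, and miR-133a-5p was at -0.59. With the replicate block, which shares only 2 numbers, miR-133a-5p was at -0.38 and miR-206-3p at 6.35 (limma, adjusted p = 0.891 for miR-206-3p). The group difference in that fit comes only from hearts 1 and 4 of each group, and MI hearts 1 and 4 are those bright for miR-206-3p. When each heart was left out in turn, differences ran from -0.36 to -0.15 for miR-1a-3p, -0.23 to -0.0041 for miR-133a-3p, -0.80 to -0.63 for miR-133a-5p, -0.31 to -0.038 for miR-133b-3p and 1.32 to 3.99 for miR-206-3p. Within arrays they ran from -0.78 to -0.51 for miR-133a-5p minus miR-133a-3p, 0.034 to 0.10 for miR-133a-3p minus miR-133b-3p, 1.69 to 4.24 for miR-206-3p minus miR-1a-3p and 0.029 to 0.32 for miR-133a-3p minus miR-1a-3p. Over all mature probe sets limma called 10 with the deposited values, all higher in MI hearts. This became 16 after quantile normalization, 25 after the centring, 17 with array weights, 18 with a trended and robust prior, 22 among the brightest 25% and 20 among the brightest 50%. It was 0 with the replicate block (76 at an unadjusted p under 0.05), and 7 to 17 without each heart, with 17 without Sham heart 3. The causes were not tested. The covariate for hybridisation controls and the omission of MI hearts 1 and 4 were chosen after seeing the data. Alternatives for hairpins were not run, because those rows have no names here.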
